A study of Canis lupus familiaris with 34 samples.

Results

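PLVAP, PECAM1 and CDH5, genes of the endothelial cells that line blood vessels, and RGS5 and MCAM, genes used to mark the pericytes wrapped around them, were followed across RNA sequencing libraries of canine osteosarcoma, a bone-forming cancer. The 5 genes were chosen by name, and each has 1 of the 23988 rows of the deposited table. They and the gene lists used below were chosen with earlier results of these data known. All 5 were among the 15165 genes that reached at least 1 FPKM (fragments counted per kilobase of a transcript and relative to the size of its library) in at least 2 libraries. The table covers 34 libraries made from total RNA with the TruSeq RNA v2 kit. The labels give 30 libraries of primary bone tumours, 1 of a metastasis (DOS.6M), 2 of cell lines grown from osteosarcoma (OSCA.8, OSCA.78) and 1 of an osteoblast culture (CNOB), and the breed of every sample as Golden Retriever. The series' own description also names Rottweilers, and no age, sex, treatment, tumour site or vessel count is given in the sources used here. Libraries DOS.46 and DOS.46.2 carry 1 title number and were averaged, which leaves 29 primary tumours. The lines stem from earlier primary tumours, and their numbers 8 and 78 also appear on tumours DOS.8 and DOS.78, as the metastasis shares 6 with DOS.6. That these come from the same dogs is not stated.

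A capillary is a tube of endothelial cells held by cadherin junctions and wrapped by pericytes, contractile mural cells that share its basement membrane and help to keep it stable. Endothelial cells call pericytes in through PDGFB and its receptor PDGFRB, and tumour vessels are known for an uneven pericyte cover. Bone tumours are supplied by such vessels, and cultures of tumour cells grown on plastic usually hold none.

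The libraries were alike in the number of genes detected, between 15328 and 17711 rows above 0. Read counts were not used here, so the depth in reads is unknown. The columns summed to between 479053 and 1418308 FPKM, the highest sum being that of the osteoblast culture. The bone sialoprotein gene IBSP lay between 48.6 and 5171 FPKM in the primary tumours, and it reached 783 FPKM in the metastasis, 6.95 in the osteoblast culture and 1.96 or less in both lines. The bone-lineage transcription factor SP7 reached 24.7 FPKM in the osteoblast culture, against at most 5.08 in the lines. Tumours DOS.100 and DOS.32 were nearly as alike as the repeat libraries of DOS.46: they differed by a median of 0.0928 on the log2 scale, against 0.0696 for that pair and 0.497 over all 435 pairs of tumour libraries. Their deviations from the gene means correlated at r = 0.844, above the 0.729 of the repeat libraries. DOS.110 and DOS.115 came next, at r = 0.671 and a median difference of 0.267. DOS.56 and DOS.57 followed, at r = 0.468 and a median difference of 0.406. DOS.100 and DOS.32 were kept as 2 tumours, and averaging them ended no call of the 5 genes. DOS.110 and DOS.115 were also kept apart, as were DOS.56 and DOS.57, and averaging either pair was not tested. No batch is named in the labels.

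Every primary tumour held RNA of all 5 genes, and the amount differed widely between tumours. PLVAP, which forms the diaphragms of fenestrated capillaries, ran from 54.6 FPKM in DOS.112 over a median of 151 to 1320 in DOS.81, a 24.2-fold range. Only DOS.113, at 1213 FPKM, came near the highest value, and the mean was 260 ± 306 (SD, n = 29). PECAM1, the adhesion molecule CD31 of endothelial junctions, which platelets and leukocytes also carry, ran from 11.9 FPKM in DOS.112 over a median of 66.5 to 490 in DOS.81, with a mean of 102 ± 107 (SD, n = 29). CDH5, the cadherin that joins endothelial cells, had the widest range in ratio, 52.3-fold, from 5.36 FPKM in DOS.112 over a median of 28.3 to 280 in DOS.81. The second-highest CDH5 value was 120 FPKM in DOS.115, so DOS.81 stood clear of the rest for this gene.

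The pericyte genes spanned less. RGS5, which dampens G-protein signalling in pericytes, lay between 7.55 FPKM in DOS.101 and 115.4 in DOS.113, with a median of 29.3 and a mean of 41.4 ± 34.6 (SD, n = 29). MCAM, the adhesion molecule CD146 of pericytes, which endothelial cells and some tumour cells also carry, lay between 16.8 FPKM in DOS.101 and 309 in DOS.113, with a median of 70.1 and a mean of 94.8 ± 76.2 (SD, n = 29). The ratio of the highest to the lowest tumour was 15.3 for RGS5 and 18.4 for MCAM. On the scale of log2(FPKM + 1), the SD over tumours was 1.19 for PLVAP, 1.33 for PECAM1, 1.24 for CDH5, 1.15 for RGS5 and 1.07 for MCAM, against a median of 0.54 over all genes tested. Between 92.1% and 95.9% of genes varied less than each of the 5. In bulk tissue, fewer cells of a type and less RNA per cell cannot be told apart.

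**Figure D1:**
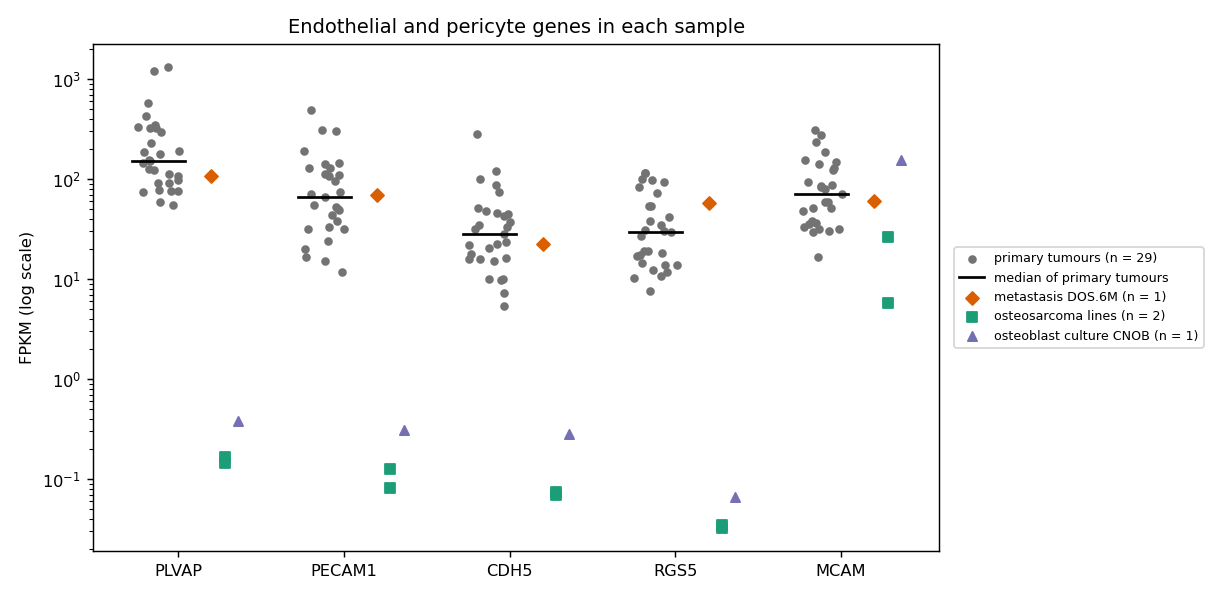
FPKM (log axis) of the 5 genes in each sample: grey points are the 29 primary tumours with their median as a bar, and coloured symbols are the metastasis, the 2 osteosarcoma lines and the osteoblast culture. PLVAP, PECAM1, CDH5 and RGS5 lie below 0.4 FPKM in the cultures and above 5 FPKM in every tumour, while MCAM in the osteoblast culture lies at 155 FPKM.

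FPKM is scaled to transcript length, so levels of different genes are set side by side here. The unit was assumed and the annotation is not given, so the transcript lengths behind these ratios could not be checked. PLVAP was the highest of the 5 in 28 of 29 tumours, and MCAM was highest in the remaining tumour, DOS.85. The median ratio of PLVAP to CDH5 was 5.79 and that of PLVAP to RGS5 was 6.25. PECAM1 exceeded CDH5 and RGS5 in all 29 tumours, and MCAM exceeded RGS5 in all 29. Neither PECAM1 and MCAM nor CDH5 and RGS5, neighbours in the order of levels, differed beyond their spread. PECAM1 was above MCAM in 12 tumours and below it in 17, with a mean log2 ratio of -0.11 ± 0.63 (SD, n = 29). CDH5 was above RGS5 in 13 tumours and below it in 16, with a mean log2 ratio of -0.05 ± 0.88 (SD, n = 29). The lowest of the 5 was thus CDH5 in 16 tumours and RGS5 in 13.

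The same few tumours stood at the ends of the range for endothelial and pericyte genes alike. DOS.81 ranked first for PLVAP, PECAM1 and CDH5 and second for RGS5 and MCAM. DOS.81, DOS.113 and DOS.115 were among the highest 7 tumours for each of the 5 genes, and DOS.84, DOS.101 and DOS.116 were among the lowest 7 for each. DOS.112 was the lowest of all for the 3 endothelial genes and second-lowest for RGS5, yet its MCAM level of 50.8 FPKM ranked 19 of 29. DOS.85 also had MCAM far above CDH5: it ranked 5 for PECAM1, RGS5 and MCAM, 17 for PLVAP and 20 for CDH5.

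Over the 29 tumours, all 10 pairs of the 5 genes were positively correlated on the log2(FPKM + 1) scale. The endothelial pairs had r = 0.883 (rho = 0.874) for PLVAP with CDH5, 0.876 (rho = 0.806) for PECAM1 with CDH5 and 0.841 (rho = 0.843) for PLVAP with PECAM1. The pericyte pair RGS5 and MCAM had r = 0.884 (rho = 0.846). Pairs that crossed the line between the cell types were not uniformly looser. PECAM1 had r = 0.889 (rho = 0.881) with RGS5 and 0.891 (rho = 0.892) with MCAM. PLVAP had r = 0.761 (rho = 0.715) with RGS5 and 0.786 (rho = 0.760) with MCAM, and CDH5 had r = 0.749 (rho = 0.724) with RGS5 and 0.761 (rho = 0.712) with MCAM.

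Permutation p-values of the 10 Pearson and 10 Spearman coefficients lay between 1e-05, the smallest that 100000 permutations can give, and 3e-05. In limma, which regressed every other gene on each of the 5 in turn and adjusted p over 15164 genes, the adjusted p for these pairs lay between 6.74e-09 and 7.62e-05. All 4 partners of each gene were called, where the share of all genes called in either direction was 4.15% with PLVAP, 8.37% with PECAM1, 6.09% with CDH5, 6.94% with RGS5 and 5.64% with MCAM. The correlations did not rest on the extreme tumours. When the 2 tumours most distant from the first gene's median were dropped, r lay between 0.689 for PLVAP with RGS5 and 0.913 for PECAM1 with MCAM. A few tumours did bear on which pairs were closest. Without DOS.56, DOS.57 and DOS.85, chosen after their values were seen, PECAM1 with CDH5 came to r = 0.950 and CDH5 with RGS5 to 0.851, while PECAM1 with RGS5 (0.890) and RGS5 with MCAM (0.880) stayed near their values over all tumours. DOS.56, DOS.57 and DOS.85 had the highest ratios of RGS5 and of PECAM1 to CDH5. Some rise in r of CDH5 with RGS5 and with PECAM1 was thus built into the choice. Differences between the correlations were not tested.

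**Figure D2:**
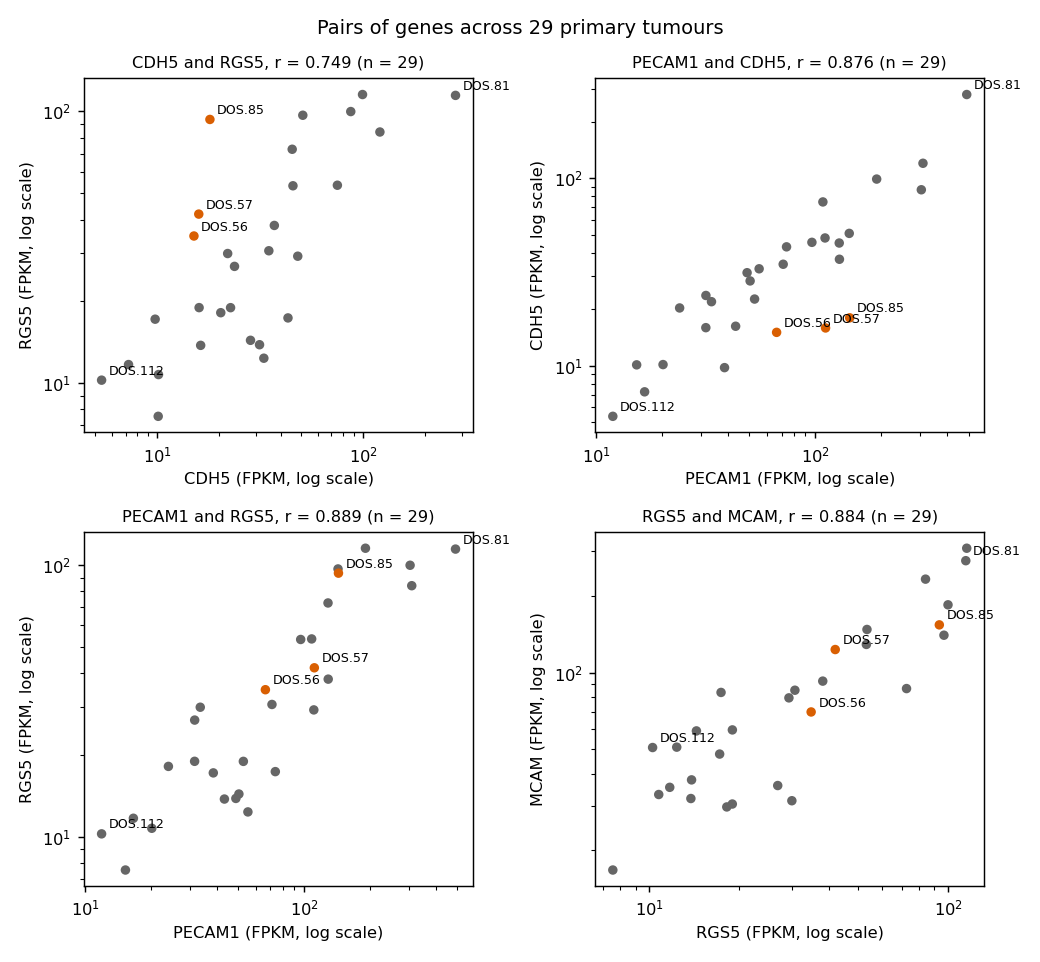
FPKM of 4 gene pairs in the 29 primary tumours, each point a tumour, on log axes, with r of log2(FPKM + 1) above each panel and DOS.56, DOS.57 and DOS.85 in orange. The orange points lie to one side of the others in both panels with CDH5 and among the others in the panels without it.

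RGS5 and CDH5 were set against each other as a ratio in each tumour. It ran from 0.376 in DOS.37 to 5.19 in DOS.85, and 16 of 29 tumours had more RGS5 than CDH5. DOS.57 and DOS.56 followed DOS.85 with ratios of 2.64 and 2.31. At the other end stood DOS.28 (0.442), DOS.81 (0.409), DOS.90 (0.403) and DOS.37. The high ratios of DOS.85, DOS.57 and DOS.56 arose with CDH5 levels of 17.99, 15.88 and 15.05 FPKM, below the median of 28.3, and with RGS5 levels of 93.4, 41.9 and 34.8 FPKM, above the median of 29.3.

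Ratios of other genes to CDH5 share its low level in these tumours, so they are given as description. In DOS.85, DOS.57 and DOS.56, CDH5 ranked 20, 23 and 24 of 29, PLVAP ranked 17, 18 and 16, and PECAM1 ranked 5, 9 and 15. The log2 ratio of PECAM1 to CDH5 was 2.99, 2.81 and 2.14 in that order, the 3 highest of the 29, against a mean of 1.22 ± 0.66 (SD, n = 29). The log2 ratio of MCAM to CDH5 was 3.10, 2.96 and 2.22 in them, and it was highest in DOS.112 at 3.25. The share of the FPKM sum taken by 29 ribosomal protein genes was 7.59% in DOS.57, the highest of the tumours, 5.27% in DOS.85 and 4.43% in DOS.56. Over the other 26 tumours it lay between 1.95% and 7.37%. Its part in these ratios was not tested.

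**Figure D3:**
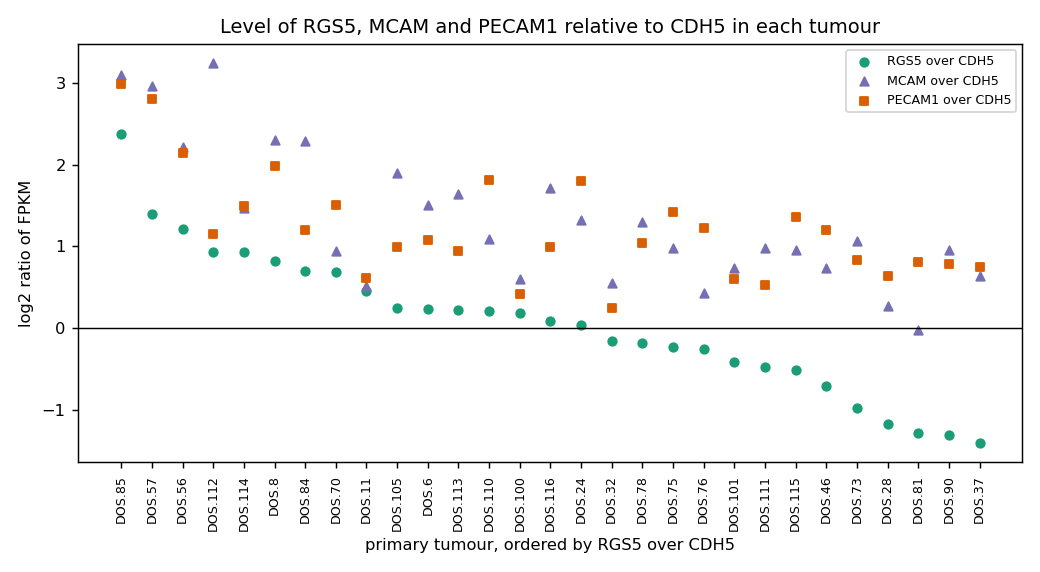
Log2 ratio of RGS5 (circles), MCAM (triangles) and PECAM1 (squares) to CDH5 in each of the 29 primary tumours, ordered by RGS5 over CDH5. DOS.85 stands apart with an RGS5 ratio of 2.38 on this scale, DOS.57 and DOS.56 follow, and DOS.37 is lowest at -1.41.

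The genes nearest in pattern to each of the 5 over the tumours were mostly other vessel genes. PLVAP was followed most closely by EXOC3L2 (r = 0.964), the vascular guidance receptor ROBO4 (0.933), the semaphorin SEMA3F (0.930), the junction protein ESAM (0.927) and the receptor TIE1 (0.924). PECAM1 was nearest to TEK, the angiopoietin receptor TIE2 (0.965), then MYCT1 (0.950), the adhesion receptor GPR116 (0.947), the ectonucleotidase ENTPD1 (0.945) and the endothelial receptor ELTD1 (0.932). CDH5 was nearest to TIE1 (0.956), the endothelial matrix protein MMRN2 (0.955), the Notch receptor NOTCH4 (0.950), the basement membrane collagen COL4A1 (0.935) and the protocadherin PCDH1 (0.934).

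RGS5 and MCAM had genes of both cell types as neighbours. For RGS5 these were GPR116 (r = 0.936), ABCC9 (0.921), which with KCNJ8 builds the ATP-sensitive potassium channel of mural cells, ELTD1 (0.920), MYCT1 (0.917) and the metalloproteinase MMP28 (0.910). For MCAM they were ABCC9 (0.918), ESAM (0.913), LDB2 (0.911), KCNJ8 (0.910) and STARD8 (0.906). Each r is over the same 29 tumours, and no p is attached to a neighbour chosen for its r.

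Endothelial genes rose with all 5 genes. Of 35 listed endothelial genes tested, the slope on the member was positive and passed limma (adjusted p below 0.05 over 15164 genes) for 30 with PLVAP, 32 with PECAM1, 32 with CDH5, 31 with RGS5 and 32 with MCAM. Over all genes, a positive slope was called for 3.71% with PLVAP, 6.38% with PECAM1, 5.05% with CDH5, 5.09% with RGS5 and 4.76% with MCAM. The median slope of the list lay between 0.63 and 0.75, in log2 units per log2 unit of the member, where all genes had medians within 0.01 of 0. These 5 regressions use the same tumours and correlated predictors, so they are not 5 separate observations.

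With CDH5 the steepest endothelial slopes were those of the apelin receptor APLNR at 1.10 (adjusted p = 4.82e-10), TIE1 at 0.89 (1.28e-12) and TEK at 0.88 (2.67e-07), all by limma. With RGS5 they were ELTD1 at 0.999 (1.11e-09), TEK at 0.99 (1.27e-08) and MYCT1 at 0.98 (1.11e-09). The tip-cell gene ESM1 followed neither, with slopes of 0.00 on CDH5 (limma adjusted p = 0.998) and 0.10 on RGS5 (0.832). Over all 29 tumours, 16 of the 35 endothelial genes had a higher r with CDH5 than with RGS5 and 19 the reverse. Without DOS.56, DOS.57 and DOS.85 these counts were 24 and 11, so that the split of the list depended on those tumours. They had the highest ratios of RGS5 to CDH5 and were chosen after their values were seen, so the shift is given as description. NOTCH4 shows the shift: its r with RGS5 was 0.671 over 29 tumours and 0.861 over the other 26, and with CDH5 it was 0.950 and 0.963.

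Of 22 pericyte and smooth muscle genes tested, positive slopes passed limma for 13 with RGS5, 12 with MCAM, 13 with PECAM1, 8 with CDH5 and 4 with PLVAP, and the count for CDH5 was 5 without DOS.115. Over all genes, the share called with a positive slope lay between 3.71% with PLVAP and 6.38% with PECAM1. Without DOS.56, DOS.57 and DOS.85 the counts were 12 with RGS5, 11 with MCAM, 12 with PECAM1, 10 with CDH5 and 7 with PLVAP. Differences between these counts were not tested. The arterial connexin GJA4 had a slope of 0.91 on RGS5 (limma adjusted p = 1.3e-08) and 0.74 on CDH5 (2.14e-05). KCNJ8 had slopes of 0.87 on RGS5 (3.22e-07) and 0.55 on CDH5 (0.0156), and ABCC9 of 0.87 (1.11e-09) and 0.67 (3.4e-05). The median r of the list was 0.532 with RGS5 and 0.431 with CDH5, and 15 of the 22 genes had the higher r with RGS5, both over 29 tumours and over the 26. Without the 3 tumours the medians were 0.546 and 0.494.

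The slopes of 9 genes of the list on RGS5 did not pass: HIGD1B, NDUFA4L2, MYLK, CSPG4, FOXC2, NOTCH3, ENPEP, RGS4 and SYNM. CSPG4, the proteoglycan NG2, had r = -0.223 with RGS5 and 0.175 with CDH5. NOTCH3, the mural Notch receptor, had a slope of 0.53 on CDH5 (limma adjusted p = 0.0224), and its slope on RGS5 was 0.19 (0.592). Without DOS.56, DOS.57 and DOS.85, r with RGS5 was -0.060 for CSPG4 and 0.388 for NOTCH3, against 0.189 for NOTCH3 over all 29 tumours. The contractile genes TAGLN and MYH11 did pass with RGS5, at slopes of 0.68 (limma adjusted p = 0.0334) and 0.41 (0.0375).

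Among 24 vessel growth ligands and receptors, positive slopes passed limma for 5 with PLVAP, 5 with PECAM1, 6 with CDH5, 5 with RGS5 and 4 with MCAM. For this list and the lymphatic one, the share of all genes called was between 3.71% with PLVAP and 6.38% with PECAM1. VEGFC, a ligand of the lymphatic and vascular receptor FLT4, had slopes from 0.57 on RGS5 (limma adjusted p = 0.0012) to 0.73 on MCAM (6.45e-06). The receptor NOTCH1 had its steepest slope on CDH5, at 0.66 (6.1e-08), and the Notch ligand DLL4 on PLVAP, at 0.67 (1.81e-06). Of 6 lymphatic endothelial genes, 1 passed with PLVAP (2 without each of DOS.46, DOS.56, DOS.57, DOS.111, DOS.113 and DOS.116), 4 with PECAM1, 1 with CDH5, 3 with RGS5 and 4 with MCAM (2 without DOS.101). FLT4 passed with each of the 5 genes, and its slopes ran from 0.46 on PECAM1 to 0.64 on PLVAP. LYVE1, a hyaluronan receptor of lymphatic endothelium and of some macrophages, had slopes of 0.53 on RGS5 and 0.54 on MCAM (limma adjusted p = 0.00696 and 0.0151).

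Of 19 leukocyte genes, positive slopes passed limma for 1 with PLVAP, 3 with PECAM1, 1 with CDH5, 2 with RGS5 and 3 with MCAM. These were 5.26%, 15.8%, 5.26%, 10.5% and 15.8% of the list, against 3.71%, 6.38%, 5.05%, 5.09% and 4.76% of all genes. The shares with PLVAP and CDH5 were thus near those of all genes. An unadjusted p below 0.05 was reached by 4, 14, 1, 7 and 5 of the 19 leukocyte genes in that order. Without DOS.113 the counts were 6 with PECAM1, 6 with RGS5 and 7 with MCAM, and without DOS.32 the count with MCAM was 1. HCLS1, a haematopoietic substrate of tyrosine kinases, passed in all 5 regressions, with slopes from 0.50 on CDH5 to 0.66 on MCAM. AIF1, a macrophage gene, passed with PECAM1 (0.43), RGS5 (0.54) and MCAM (0.51). None of the leukocyte genes was at 0 in every tumour, and their summed level ran from 100.5 to 1726 FPKM. The part of leukocytes in the PECAM1 levels was not tested. The platelet genes GP9 and TREML1, the 2 of that list past the filter, summed to between 0.380 and 17.05 FPKM in the tumours, and GP9 passed with PLVAP, PECAM1 and RGS5. The GP9 call with PLVAP was lost without DOS.70 or DOS.100. Without DOS.70 1 gene of this list passed with CDH5 and with MCAM, and without DOS.76 1 passed with MCAM.

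Proliferation genes ran the other way from all 5 genes, with every slope of the list negative. The median r of the list was -0.514 with RGS5 and -0.489 with PECAM1. It was -0.391 with CDH5, -0.322 with PLVAP and -0.291 with MCAM. Of 10, negative slopes passed limma for 6 with RGS5, 3 with PECAM1 and 0 with PLVAP, CDH5 and MCAM, where 3, 6 and 2 had an unadjusted p below 0.05. Over all genes, negative slopes were called for 1.85% with RGS5 and 1.98% with PECAM1. The proliferation antigen MKI67 had a slope of -0.44 on RGS5 (limma adjusted p = 0.0409), BUB1 of -0.41 (0.03) and the mitotic kinase PLK1 of -0.41 (0.0219). The count with RGS5 depended on single tumours: it was 1 without DOS.101, 2 without DOS.110 and 3 without each of DOS.70, DOS.114 and DOS.115, and 3 after scaling to the upper quartile. It was highest, at 8, without DOS.76. The count with PECAM1 lay between 1, without DOS.110 or DOS.115, and 6, without DOS.76. The count with PLVAP was 2 without DOS.76 and the count with CDH5 was 3 without it and 1 without DOS.90 or DOS.111.

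Stroma and bone genes gave few calls in number, from short lists, where positive slopes were called for 3.71% (PLVAP) to 6.38% (PECAM1) of all genes. The largest shares of the lists were 22.2% of the fibroblast genes, with PECAM1 and with MCAM, and 14.3% of the bone-forming genes. Of 9 fibroblast genes, positive slopes passed limma for 2 with PECAM1 and 2 with MCAM (PI16 and C7 in both), 1 with CDH5 (C7) and 0 with PLVAP and RGS5, where 0 and 2 had an unadjusted p below 0.05. Of 7 bone-forming genes, PHEX, a peptidase of osteocytes, passed with PLVAP (slope 0.88), PECAM1 (0.74), CDH5 (0.87) and RGS5 (0.85), with limma adjusted p between 0.0258 and 0.0486. These calls were not stable: the PHEX call with CDH5 was lost without DOS.81, and removal of any of 8 tumours for PLVAP, 13 for PECAM1 and 21 for RGS5 changed the count of the bone list. For the fibroblast list that number was 23 with CDH5, 14 with MCAM, 6 with RGS5 and 3 with PECAM1.

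**Figure D4:**
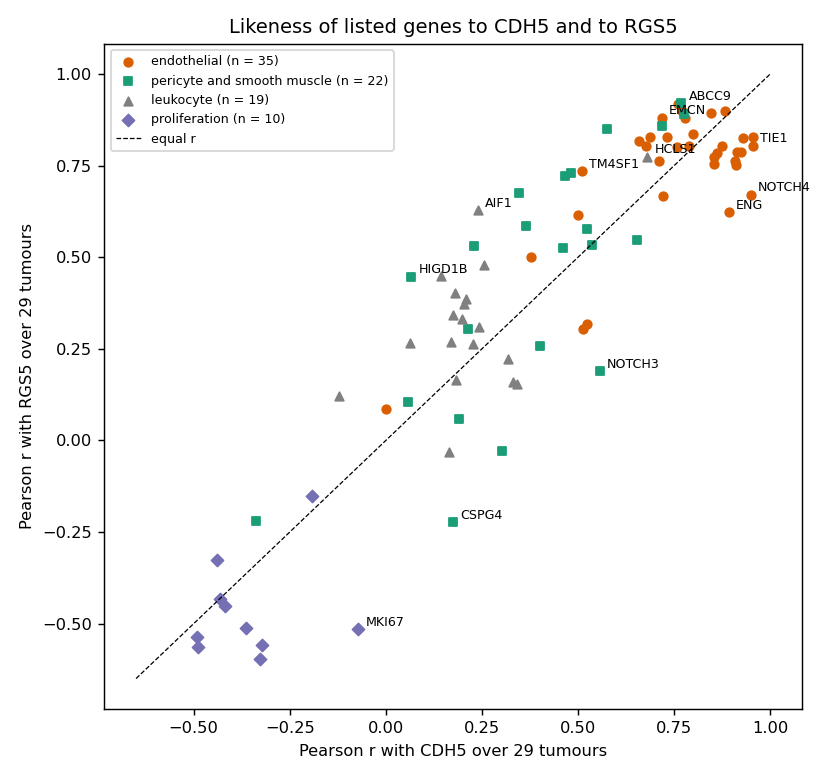
Pearson r of each listed gene with CDH5 (horizontal axis) and with RGS5 (vertical axis) over the 29 primary tumours; the dashed line marks equal r. Endothelial genes gather at high r on both axes, most pericyte and smooth muscle genes lie above the line, and proliferation genes lie at negative r.

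Every gene was also regressed on the difference of log2 RGS5 and log2 CDH5. Over all 29 tumours limma called 805 of 15163 genes (5.31%), 296 with a positive slope (1.95%) and 509 with a negative one (3.36%). Positive slopes were led by the neutrophil and monocyte genes S100A12 (1.30 ± 0.33 SE, adjusted p = 0.0207) and S100A9 (1.04 ± 0.28 SE, 0.028), the lymphocyte gene RGS1 (0.92), the immunoglobulin joining chain IGJ (0.77), the neutrophil protease CTSG (0.66), HNMT (0.66), the ribosomal protein gene RPS20 (0.66) and the endotoxin co-receptor LY96 (0.65). Of the 19 listed leukocyte genes, limma called 0 in either direction, with 2 at an unadjusted p below 0.05. Their slopes lay between -0.57 and 0.59. The median was 0.21, and -0.0008 without DOS.56, DOS.57 and DOS.85. A positive slope of that list was called for 1 gene when any of 6 tumours was left out. Negative slopes were led by the basement membrane proteoglycan HSPG2 (-0.95 ± 0.18 SE, adjusted p = 0.00468), NOTCH2 (-0.88), CEMIP (-0.86), CREB3L1 (-0.83), the laminin chain LAMA5 (-0.83), the cytolinker PLEC (-0.81), the cadherin FAT1 (-0.81) and MTSS1 (-0.77).

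The calls depended on few tumours. In limma, 56 genes were called without DOS.85, 137 without DOS.57, 389 without DOS.56 and 0 without all 3, where 868 had an unadjusted p below 0.05. These 3 had the highest values of the difference itself, so leaving them out also narrowed the range of the predictor. The slopes then went different ways. Those of S100A12, CTSG and HSPG2 came to 0.73, 0.12 and -0.68, those of RPS20 and HNMT to 0.66 and 0.62, and those of RGS1 and CEMIP to 0.97 and -1.03. The split of calls also moved with scaling: after scaling to the upper quartile, 437 slopes were positive and 351 negative. Of 29 ribosomal protein genes, a list added after the values were seen and a family with many near-identical copies in the genome, 15 had called positive slopes, with a median of 0.41.

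None of the 35 endothelial genes was called by limma in either direction, with 2 at an unadjusted p below 0.05, and the median slope was -0.05. That median was -0.19 without DOS.85 and -0.25 without DOS.56, DOS.57 and DOS.85, again with 0 genes called. Among the 22 pericyte and smooth muscle genes 2 were called (9.09%, against 5.31% of all genes), NOTCH3 (-0.77, limma adjusted p = 0.0318) and CSPG4 (-0.72, 0.0309), both lower where RGS5 was high relative to CDH5. Both calls were lost without DOS.56, without DOS.57 and without DOS.85, and the slopes without DOS.85 were -0.84 and -0.51. The count of negative calls was 1 without DOS.37 or DOS.81 and after quantile normalisation. 1 positive slope of the list was called without each of DOS.46, DOS.70, DOS.81, DOS.84, DOS.105, DOS.113 and DOS.114, after scaling to the upper quartile, and with a filter of 1 FPKM in at least 17 of the 34 libraries. HIGD1B, a mitochondrial gene that marks pericytes, had a slope of 0.71 (limma adjusted p = 0.052). Of the other lists, MKI67 (-0.70) and SP7 (-0.72) were called, each lost without DOS.57 and without DOS.85, and SP7 also without DOS.56 and after quantile normalisation. Their slopes without DOS.85 were -0.67 and -0.62.

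In the cultured lines the vessel genes were nearly absent. OSCA.8 and OSCA.78 had 0.145 and 0.165 FPKM of PLVAP, 0.0815 and 0.125 of PECAM1, 0.0748 and 0.0685 of CDH5, and 0.0325 and 0.0345 of RGS5. Each of these lay below all 29 tumours, of which the lowest held 54.6, 11.9, 5.36 and 7.55 FPKM. MCAM was lower as well but remained above 5 FPKM: OSCA.8 held 5.74 FPKM, below all 29 tumours, and OSCA.78 held 26.2, which is above 1 tumour, DOS.101. The lines minus tumours difference on the log2(FPKM + 1) scale, which understates changes of low values, was -7.25 for PLVAP, -5.95 for PECAM1, -4.81 for CDH5, -4.91 for RGS5 and -2.43 ± 0.76 (SE) for MCAM.

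All 5 passed limma, in which 16.4% of genes were called, 8.49% as higher and 7.92% as lower. The adjusted p was 1.32e-07 for PLVAP, 2.55e-05 for PECAM1, 1.72e-04 for CDH5, 5.1e-05 for RGS5 and 0.0256 for MCAM. An exact two-sided permutation test over the 465 ways to pick 2 of 31 samples gave p = 0.00215, the smallest it can give, for the first 4 and 0.0043 for MCAM. The MCAM call was lost by limma with either line alone, at -3.44 (adjusted p = 0.0761) for OSCA.8 and -1.43 (0.385) for OSCA.78. With only 2 lines, the p-values speak for these lines.

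Of 35 endothelial genes, limma called 21 lower and 0 higher in the lines, with a median of -2.41, against a median of -0.05 over all genes. The lectin-like receptor CD93 (-5.23), MMRN2 (-4.54) and the adhesion molecule ICAM2 (-4.24) fell furthest. The count was 8 without OSCA.78 and 10 without OSCA.8, at medians of -2.53 and -2.30. SOX17, EGFL7, HHEX and TAL1 had differences between 0.02 and 0.56 that did not pass. Of 22 pericyte and smooth muscle genes, 5 were lower and 0 higher, with a median of -0.88. NDUFA4L2 (-6.40), COX4I2 (-4.00) and GJA4 (-3.54) fell furthest, the first 2 being mitochondrial genes. Over the tumours COX4I2 followed RGS5 (r = 0.675) and NDUFA4L2 did not (-0.221). The osteoblast culture held 4064 FPKM of NDUFA4L2, against at most 1869 in a tumour. TAGLN (1.60, limma adjusted p = 0.307) and NOTCH3 (-0.05, 0.972) did not pass. That count was 1 without OSCA.78 and 3 without OSCA.8.

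Of 24 vessel growth genes, 6 were lower and 0 higher in the lines, led by DLL4 (-3.21), the placental growth factor PGF (-3.08) and ANGPTL4 (-2.98), with 3 lower without OSCA.78 and 2 without OSCA.8. Of 6 lymphatic genes, LYVE1 fell (-3.28) and TBX1 rose (2.36), both lost without OSCA.78. Leukocyte genes were lower as well, 14 of 19, led by TYROBP (-6.29), C1QC (-6.01) and LAPTM5 (-5.99), and their summed level was 20.9 and 23.4 FPKM in the lines. Without OSCA.78, 7 leukocyte genes were lower. Bone-forming genes were lower in 5 of 7, led by IBSP (-8.32), and fibroblast genes in 2 of 9, FAP (-3.14) and POSTN (-5.50). Without OSCA.78 these counts were 2 and 0, and without OSCA.8 they were 3 and 2. Proliferation genes were higher in 3 of 10, led by MKI67 (2.03), and in 0 after scaling to the upper quartile, after quantile normalisation or without OSCA.78.

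**Figure D5:**
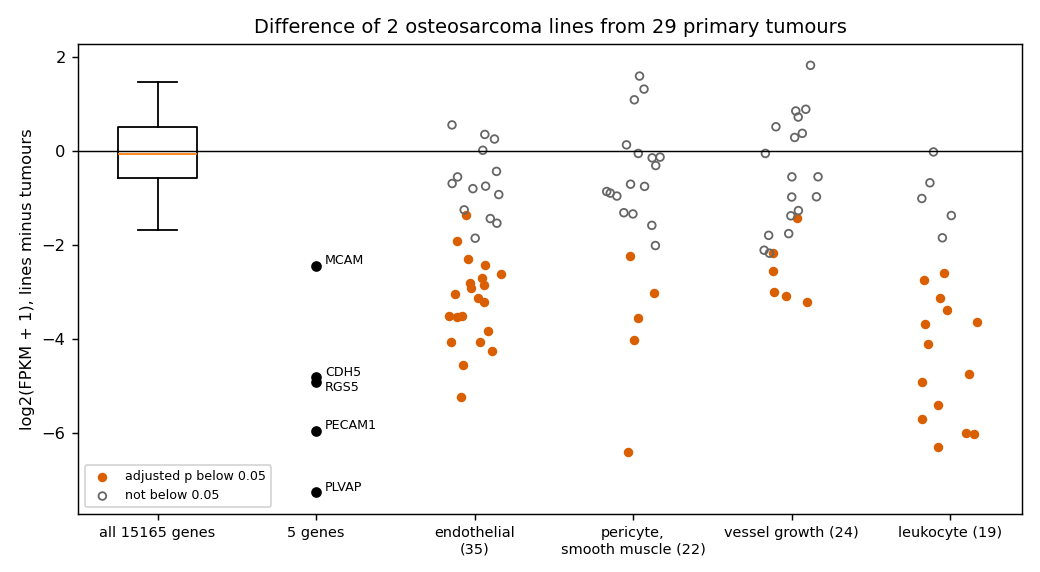
Difference of the 2 osteosarcoma lines from the 29 primary tumours on the log2(FPKM + 1) scale for the 5 genes and 4 gene lists; filled points passed limma at an adjusted p below 0.05, and the box shows the median and quartiles of all 15165 genes with whiskers at percentiles 5 and 95. PLVAP, at -7.25, lies lowest of the 5 and MCAM, at -2.43, highest.

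Each line was also set beside the tumour with the same number. OSCA.8 and DOS.8 held 0.145 and 108 FPKM of PLVAP, 0.0815 and 38.5 of PECAM1, 0.0748 and 9.75 of CDH5, 0.0325 and 17.2 of RGS5, and 5.74 and 47.9 of MCAM. OSCA.78 and DOS.78 held 0.165 and 192 FPKM of PLVAP, 0.125 and 71.2 of PECAM1, 0.0685 and 34.8 of CDH5, 0.0345 and 30.7 of RGS5, and 26.2 and 85.4 of MCAM. The ratio of tumour to line was thus 8.35 and 3.26 for MCAM and at least 130.4 for the other 4 genes.

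The osteoblast culture, a single sample without a test, parted MCAM from the other 4 genes. It held 0.380 FPKM of PLVAP, 0.312 of PECAM1, 0.284 of CDH5 and 0.0663 of RGS5, each below all 29 tumours. Its MCAM level was 155 FPKM, above 25 tumours and below 4. That rank depended on its high column sum: with every sample scaled to the median sum of the tumours, an alternative added after the values were seen, MCAM was 67.5 FPKM, above 13 tumours and below 16. Of the listed endothelial genes, TIE1, APLNR, TAL1 and TMEM204 were listed at 0 in it, as were HIGD1B and GJA4 of the pericyte and smooth muscle list. The summed levels of these lists are given without scaling to the column sum. The 35 endothelial genes summed to 682 FPKM, within the tumour range of 211 to 2227 (median 490). Of that sum 83.5% was TM4SF1, a membrane protein that is also found outside vessels. The 22 pericyte and smooth muscle genes summed to 52352 FPKM, against at most 2349 in a tumour, and 89.9% of that was the contractile gene TAGLN.

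The metastasis, also a single sample, lay within the range of the primary tumours for all 5 genes. It held 107 FPKM of PLVAP, 68.9 of PECAM1, 22.3 of CDH5, 58.2 of RGS5 and 60.8 of MCAM. DOS.6, the primary tumour of the same number, held 423, 96.3, 45.5, 53.3 and 129 FPKM in that order. PLVAP was 3.96-fold, CDH5 2.04-fold, MCAM 2.13-fold and PECAM1 1.40-fold lower in the metastasis than in DOS.6, and RGS5 alone was not lower. Its ratio of RGS5 to CDH5 was 2.61, against 1.17 in DOS.6, and 2 of the 29 primary tumours had a higher one. With 1 sample of this kind the difference has no replicate check.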

How the data were processed

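The authors deposited 1 table for the whole series. Its header names no unit, and the deposited values were taken as FPKM, since Cufflinks 2.2.1 stands in the submitters' processing notes, next to TopHat2 2.0.13, FastQC 0.11.2 and canFam3. The annotation, the parameters and any scaling: not given in the sources used here. Another assembly's gene table was at hand, so no coordinates are printed.

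Genes had to reach 1 FPKM in 2 or more libraries, and 1 was added before log2. DOS.46 and DOS.46.2 were averaged. Lines and tumours were compared, and each gene regressed on each of the 5 genes or on log2 RGS5 minus log2 CDH5 over tumours, in limma 3.58.1 (R 4.3.3; trend and robust), with Benjamini-Hochberg adjustment over all genes tested and a threshold of 0.05. The code was tested on simulated data. Correlations used 100000 permutations (scipy 1.17.1).

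Nothing says which samples came from separate dogs, so p-values measure the spread between samples. The members and the 9 lists (139 of 193 genes in the table) were chosen with earlier results of these data known. Named genes were the 5 nearest by r, the 8 steepest called slopes each way, and the 3 largest called changes per list. Further examples were chosen after their values were seen. Alternatives covered the pseudocount, the filter, scaling, the replicate block and leaving out samples. Depth in reads is unknown.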

Additional observations from a re-analysis of the deposited data

How the results depend on the processing

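All 10 correlations between the 5 genes passed limma in every alternative run. The count of genes called between lines and tumours was 2489. It ranged from 344 without OSCA.78 to 2618 over samples left out, and was 4580 with the osteoblast culture added to the lines, where MCAM came to -1.25 (adjusted p = 0.166). MCAM ranged from -3.44 to -1.43 with a line left out. With a replicate block on the title number, which sets 2 lines against the 2 tumours of the same number, limma called 0 genes (3205 at an unadjusted p below 0.05), and the differences were -6.97 for PLVAP (adjusted p = 0.0813), -5.60 for PECAM1 (0.0857), -4.19 for CDH5 (0.113), -4.54 for RGS5 (0.0994) and -2.26 for MCAM (0.146). That fit has 4 samples, and the deviations of lines and tumours with the same number correlated at r = 0.269 across genes, over 2 pairs, which does not establish a pairing. With a pseudocount of 0.1, 1121 genes were higher and 1639 lower in the lines, and after scaling to the upper quartile 962 and 1388, with a shift of -0.14 in the median of all genes. The difference of RGS5 and CDH5 called 805 genes, 426 after quantile normalisation and 0 without DOS.56, DOS.57 and DOS.85 (868 at an unadjusted p below 0.05). With each tumour left out it ranged from 56 without DOS.85 to 1117, with 137 without DOS.57 and 389 without DOS.56. With a tumour left out, PLVAP called between 408 (without DOS.81) and 777 genes, and CDH5 between 594 (without DOS.81) and 1059. The cause of these changes was not tested. Depth in reads is unknown, so no counting error was set beside the low values of the lines.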
